A study of Arabidopsis thaliana with 12 samples.

Results

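The 10 genes described here encode seed reserve proteins of Arabidopsis thaliana and were followed through 12 RNA libraries of seedlings. They were taken by locus from the 24035 genes listed in at least 1 library, and all 10 were found. They are 3 genes for 12S globulins, also called cruciferins (CRA1, AT5G44120; CRU2, AT1G03880; CRC, AT4G28520, which RefSeq names CRU3), 4 for 2S albumins (SESA1, AT4G27140; SESA2, AT4G27150; SESA3, AT4G27160; SESA4, AT4G27170) and 3 for oleosins (OLEO1, AT4G25140; OLEO2, AT5G40420; OLEO4, AT3G27660). The libraries held poly(A) RNA of whole seedlings 10 days old, 3 libraries in each of 4 groups: cost1 mutant seedlings after 6 h of dehydration (cost1 dehydrated), cost1 mutant seedlings without it (cost1 control), wild-type seedlings after the same dehydration (WT dehydrated) and wild-type seedlings without it (WT control). Both genotypes grew on upright plates of MS medium, and seedlings of like size were left to dry on a petri dish. The labels name neither the accession nor the kind of lesion in cost1, and they do not say that libraries of a group came from separate plates, so p-values measure the spread between these libraries, which may be technical.

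Globulins and albumins are the nitrogen store of the dry Arabidopsis seed. They are made late in seed development, kept in protein storage vacuoles and broken down once the seed germinates. Oleosins coat the oil bodies of the same cells and keep them from fusing. Transcription of these genes in the embryo depends on the B3 factors ABI3, FUS3 and LEC2 and on bZIP factors that act with them, and after germination the VAL proteins, PICKLE and Polycomb complexes hold the genes silent. Some other late embryo genes, those of the LEA group, can be switched on again in seedlings by abscisic acid or water loss.

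The upstream sequences of 3 of the genes are shown because their values differ most in kind. CRC and SESA3 were high in 2 libraries of 1 group, and OLEO4 was the gene that responded to dehydration. Each run is the 250 bases before the annotated gene start, 5′ to 3′ on the gene's own strand (the plus strand for all 3), from the TAIR10.1 genome with its RefSeq annotation; the count tables carry no coordinates and were matched by locus. Capitals mark CATGCA, the core of the RY element to which B3 factors bind, and ACGTG, the core of the abscisic acid response element to which bZIP factors bind, each on either strand.
CRC upstream, chr4:14087306-14087555: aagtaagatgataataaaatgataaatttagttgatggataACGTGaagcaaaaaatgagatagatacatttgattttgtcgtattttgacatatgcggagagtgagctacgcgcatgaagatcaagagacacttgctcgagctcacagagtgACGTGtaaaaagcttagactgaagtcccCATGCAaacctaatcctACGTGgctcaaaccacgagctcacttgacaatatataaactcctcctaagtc
SESA3 upstream, chr4:13611546-13611795: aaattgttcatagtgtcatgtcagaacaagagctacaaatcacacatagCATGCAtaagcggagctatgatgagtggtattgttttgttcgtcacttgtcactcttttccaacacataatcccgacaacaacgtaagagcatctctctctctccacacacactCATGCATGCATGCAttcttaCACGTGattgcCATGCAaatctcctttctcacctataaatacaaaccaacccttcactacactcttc
OLEO4 upstream, chr3:10242994-10243243: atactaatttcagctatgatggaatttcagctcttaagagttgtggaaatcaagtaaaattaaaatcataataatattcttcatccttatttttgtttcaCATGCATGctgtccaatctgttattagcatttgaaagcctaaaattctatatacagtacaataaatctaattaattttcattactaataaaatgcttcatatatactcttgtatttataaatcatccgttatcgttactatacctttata

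CATGCA occurred in this window in 9 of the 10 genes, all but CRU2, against 8.43% of 27443 upstream regions of protein-coding genes of the same length. ACGTG occurred in 6 of the 10, namely CRC, the 4 albumin genes and OLEO1, against 22.91% of all regions. The palindrome CACGTG, which contains ACGTG on both strands, was present in 5 of the 10, against 6.49% of all regions. CRA1, CRU2, OLEO2 and OLEO4 had no ACGTG in the window. The 6 genes with ACGTG all had CATGCA as well, a pair found in 2.22% of all regions. SESA3 held 7 matches to CATGCA when overlapping matches on both strands are counted, the most of the 10, while OLEO4 held 2 that overlap in a single run. A match is a run of letters and was not tested as a site.

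The 4 albumin genes stand in a row on chromosome 4, and reads of 49 bases, the length of these reads, can fall on stretches they share. Of the 687 windows of 49 bases in the SESA2 transcript, 1 occurs in another annotated transcript, that of SESA3. It is shown because it is the single place where reads of this length could be split between members; capitals mark the shared run within the coding sequence.
SESA2: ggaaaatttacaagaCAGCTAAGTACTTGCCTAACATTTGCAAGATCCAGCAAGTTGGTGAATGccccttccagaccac
SESA3: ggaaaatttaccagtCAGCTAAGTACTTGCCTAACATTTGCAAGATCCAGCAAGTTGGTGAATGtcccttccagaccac
No such window was found for the other 8 genes. In cost1 control replicate 3 SESA2 had an expected count of 83.01 and SESA3 one of 9.99, and all other values of the 10 genes were whole.

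The summed expected counts were 5884728 to 6223687 per library. A gene that is not listed in a library was read as 0, and 3 counts, the limit that a count of 0 allows, amount to 0.482 to 0.51 CPM, that is, scaled by the library's summed counts. COST1 (AT2G45260), the gene that names the mutant, had 55.2, 61.2 and 58.3 counts in cost1 dehydrated, 50.2, 46.5 and 36.2 in cost1 control, 190, 150 and 148 in WT dehydrated and 171, 216 and 185 in WT control. It was called lower in cost1 by edgeR after dehydration and in control. Among the seedling markers the small subunit gene RBCS1A had 31798 to 78982 counts in every library and the root regulators SCR and SHR 35 to 339, while the root hair genes EXPA7 and COBL9 had 0 to 2. Of the cost1 control libraries, replicate 2 correlated across genes at 0.947 and 0.954 with replicates 1 and 3, and those at 0.985 with each other, so replicate 2 stood apart. Results that rest on it or on replicate 3 are given with and without them. Reads from fewer cells of a type and from less RNA per cell cannot be told apart in such bulk samples.

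Most of the 10 genes were at or near 0 in most libraries, and 2 libraries of cost1 control carried most of their reads. The 10 genes together had 61, 207 and 149 counts in cost1 dehydrated, 33, 375 and 2179 in cost1 control, 74, 34 and 58 in WT dehydrated, and 26, 58 and 53 in WT control. The sums were highest in cost1 control replicate 3 and next in replicate 2, while replicate 1 of that group lay with the WT libraries. Even in replicate 3 the genes made up 0.0352% of the counted reads, and in WT control replicate 1 0.000423%. A count fit across all 12 libraries kept 3 of the 10 genes, CRA1, OLEO2 and OLEO4; the other 7 had too few reads in too few libraries.

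**Figure D1:**
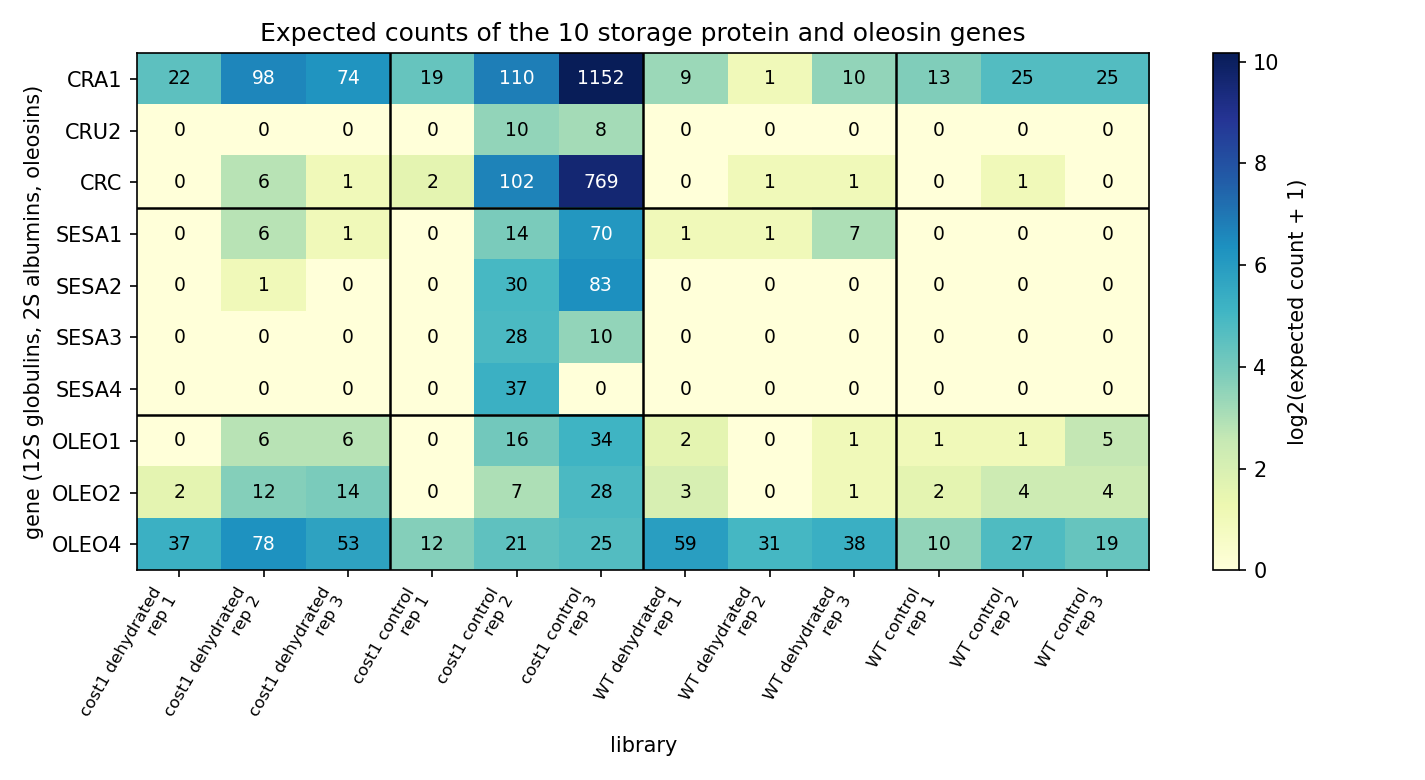
Expected counts of the 10 genes (rows) in the 12 libraries (columns), coloured by log2(expected count + 1) and printed in each cell, with lines between groups and between gene classes. The globulin and albumin rows are filled in cost1 control replicates 2 and 3, except SESA4, which is at 0 in replicate 3. The CRA1 and OLEO4 rows are filled in all 12 libraries.

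The 12S globulins differed in how many libraries held them. CRA1, a cruciferin subunit, had 22, 98 and 74 counts in cost1 dehydrated, 19, 110 and 1152 in cost1 control, 9, 1 and 10 in WT dehydrated, and 13, 25 and 25 in WT control. It was the only globulin gene listed in all 12 libraries, and every WT dehydrated value lay below every WT control value, as for 30.2% of all genes tested in the fit. Its median level was 7.12 FPKM (reads scaled to transcript length and depth) in cost1 dehydrated, 10.45 in cost1 control, 0.88 in WT dehydrated and 2.45 in WT control. CRC, another cruciferin subunit, had 0, 6 and 1 counts in cost1 dehydrated, 2, 102 and 769 in cost1 control, 0, 1 and 1 in WT dehydrated and 0, 1 and 0 in WT control. Outside cost1 control replicates 2 and 3 it thus stood between 0 and 6 counts. CRU2, a further cruciferin subunit, had 10 and 8 counts in those replicates and was at 0 in the other 10 libraries.

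The 2S albumins were found mostly in the same libraries. SESA1 had 0, 6 and 1 counts in cost1 dehydrated, 0, 14 and 70 in cost1 control, 1, 1 and 7 in WT dehydrated and 0 in all 3 WT control libraries. SESA2 had 30 and 83.01 counts in cost1 control replicates 2 and 3, a single count in cost1 dehydrated replicate 2, and 0 in the other 9 libraries. SESA3 had 28 and 9.99 counts in cost1 control replicates 2 and 3 and 0 elsewhere. SESA4 was listed in 1 library, cost1 control replicate 2, with 37 counts. That library therefore held all 4 albumin transcripts, and replicate 3 held 3 of them.

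**Figure D2:**
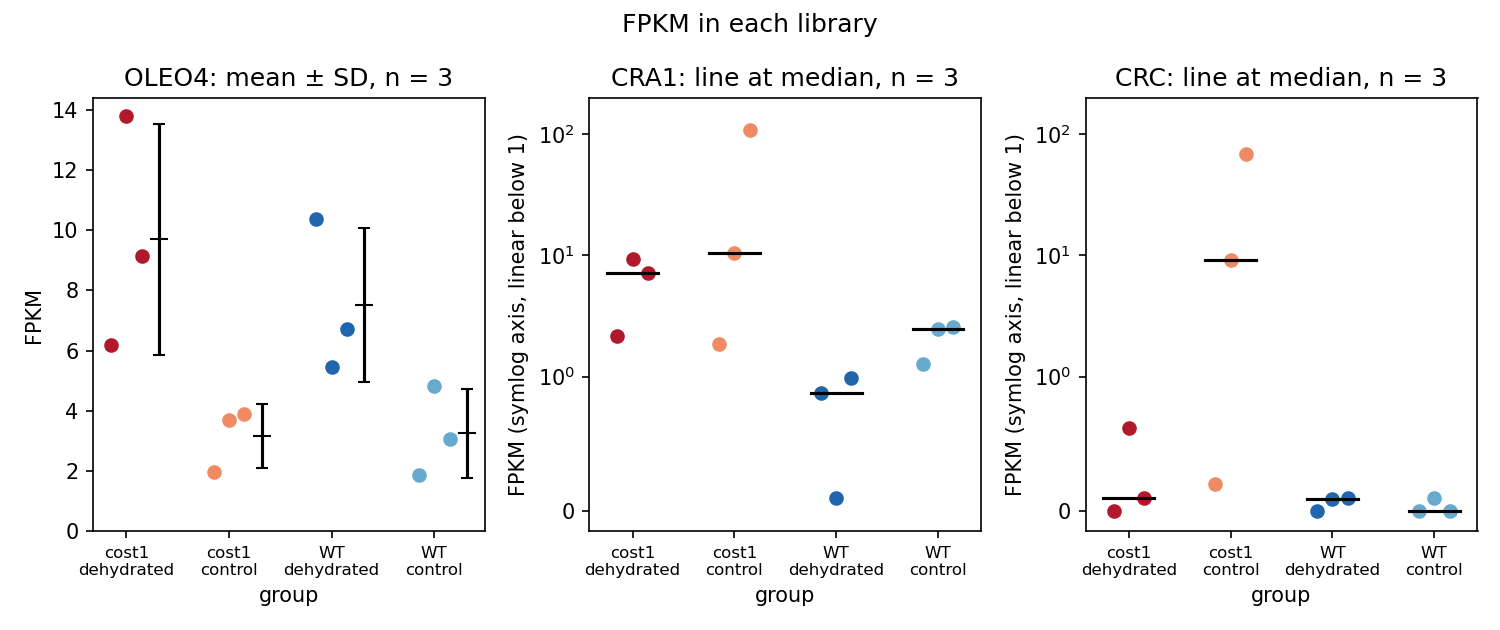
FPKM of OLEO4, CRA1 and CRC in each library by group; points are libraries, the bars for OLEO4 are the mean ± SD (n = 3), and the lines for CRA1 and CRC are medians on an axis that is linear below 1 FPKM and logarithmic above. OLEO4 lies higher in both dehydrated groups than in both control groups, while CRA1 and CRC reach 109.51 and 68.95 FPKM in 1 cost1 control library.

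OLEO4 was the member that rose with dehydration, in both genotypes. It had 37, 78 and 53 counts in cost1 dehydrated against 12, 21 and 25 in cost1 control, and 59, 31 and 38 in WT dehydrated against 10, 27 and 19 in WT control. Every dehydrated library lay above every control library, as for 28.4% of genes in cost1 and 30.6% in WT. Within cost1 control, OLEO4 was lower in replicate 1 than in replicates 2 and 3, which were rich in globulin reads. Its level averaged 9.7 ± 3.84 FPKM in cost1 dehydrated and 3.17 ± 1.06 in cost1 control, and 7.52 ± 2.56 FPKM in WT dehydrated and 3.25 ± 1.48 in WT control (SD, n = 3 each). The log2 change was 1.69 in cost1 (SE 0.40, adjusted p = 0.0044) and 1.33 in WT (SE 0.41, adjusted p = 0.0193) by edgeR's quasi-likelihood test with Benjamini-Hochberg adjustment over 18809 genes. Genes called higher made up 26.4% of those tested in cost1 and 24.9% in WT, and genes called lower 24.5% in cost1 and 20.6% in WT, so 1 of the 3 members tested is near the share of all genes. Averaged over the genotypes the change was 1.51 (SE 0.29, adjusted p = 0.000641), a comparison in which 31.3% of genes were called higher and 31.4% lower.

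The OLEO4 call in cost1 was kept without the globulin-rich libraries, at another size. Without cost1 control replicates 2 and 3 the log2 change in cost1 was 2.32, against 1.69 with them (SE 0.66, adjusted p = 0.0214 by edgeR, with the remaining library, which has the lowest OLEO4 count of its group, assumed to vary like the other groups). In WT the call was lost without WT dehydrated replicate 1 (log2 change 1.04, adjusted p = 0.0809) or WT control replicate 1 (1.04, adjusted p = 0.0745), within a range of 0.00753 to 0.0809 over 23 alternatives. In cost1 it was kept in all 23 (0.000349 to 0.0224). The cost1 response minus the WT response was 0.36 (SE 0.57, adjusted p = 0.999 by edgeR), which does not show that they are equal.

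Of the other oleosins, OLEO2 did not pass the test and OLEO1 was outside the fit. OLEO1, the main oleosin of Arabidopsis seeds, had 0, 6 and 6 counts in cost1 dehydrated, 0, 16 and 34 in cost1 control, 2, 0 and 1 in WT dehydrated and 1, 1 and 5 in WT control. OLEO2 had 2, 12 and 14 counts in cost1 dehydrated, 0, 7 and 28 in cost1 control, 3, 0 and 1 in WT dehydrated and 2, 4 and 4 in WT control. Dehydrated and control libraries overlapped for both genes in both genotypes. OLEO2 changed by −0.15 in cost1 (SE 0.90, adjusted p = 0.902) and by −1.12 in WT (SE 1.49, adjusted p = 0.567) by edgeR. In cost1 the sign turned, to 1.49 without control replicate 3 (adjusted p = 0.264) and to 6.30 without control replicates 2 and 3 (adjusted p = 0.0545), where the remaining library had 0 counts and the fitted value is no measure of size. Across the 12 libraries the log2(FPKM + 0.1) of OLEO4 correlated with the other 9 genes at −0.207 to 0.336, and those 9 with each other at 0.174 to 0.995 (median 0.734 over 36 pairs). These are descriptions over 12 libraries, and the high values share the 2 cost1 control libraries.

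For CRA1 the dehydration difference in cost1 turned on single control libraries. CRA1 changed by −2.51 in cost1 (SE 1.01, adjusted p = 0.0554) and by −1.50 in WT (SE 1.65, adjusted p = 0.484) by edgeR, and neither passed the test. In cost1 the change was −3.07 without replicate 1 of the control (adjusted p = 0.00848), −2.95 without replicate 2 (adjusted p = 0.0269), 0.12 without replicate 3 (adjusted p = 0.904) and 1.87 without replicates 2 and 3 (SE 0.87, adjusted p = 0.121). The sign thus turned without replicate 3. In WT a fit of the WT libraries alone called CRA1 lower (−1.49, adjusted p = 0.0467 by edgeR). That fit called 50.3% of 18142 genes in either direction. Over 23 alternatives the adjusted p of CRA1 in WT ranged from 0.0467 to 0.70. With no count filter, which brought all 10 genes into the fit, CRC, SESA2 and SESA3 were called lower in dehydrated cost1 and OLEO4 higher; 17.9% of the 24027 genes were called lower there and 21% higher. For the 3 genes called lower, the libraries other than cost1 control replicates 2 and 3 held 0 to 6 counts each. In WT the same fit called OLEO4 alone of the 10, with 20.2% of genes called higher.

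The 7 genes outside the count fit were compared by exact two-sided permutation tests of the mean CPM, here also scaled by edgeR's TMM factors. With 3 libraries a group the p-value of such a test cannot go below 0.1. In cost1 the dehydrated mean was 0.413 CPM for CRC, against 43.4 in control (exact p = 0.2), and 0.0596 CPM for SESA2, against 5.68 in control (exact p = 0.4). In WT, SESA1 had 0.521 CPM after dehydration and 0 in control (exact p = 0.1), from 9 reads in all. With relabelling within genotype over all 12 libraries, where the smallest p is 0.005, the 7 genes had exact p-values of 0.25 to 1.

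The make-up of the reads differed between the 2 rich libraries. In cost1 control replicate 2 the globulins held 59.2% of the counts of the 10 genes (95% exact interval 54 to 64.2), the albumins 29.1% (24.5 to 34) and the oleosins 11.7% (8.66 to 15.4). In replicate 3 the globulins held 88.5% (87.1 to 89.8), the albumins 7.48% (6.41 to 8.67) and the oleosins 3.99% (3.21 to 4.9). CRA1 was 10.5 times and CRC 7.54 times as high in replicate 3 as in replicate 2, SESA2 2.77 times and CRU2 0.8 times, and SESA4 was at 0 of 2179 counts in replicate 3, an interval of up to 0.169%. The intervals cover counting error only, and they compare 2 libraries, not conditions. In the WT libraries the oleosins, mostly OLEO4, held 69% to 91.2% after dehydration and 50% to 55.2% in control.

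**Figure D3:**
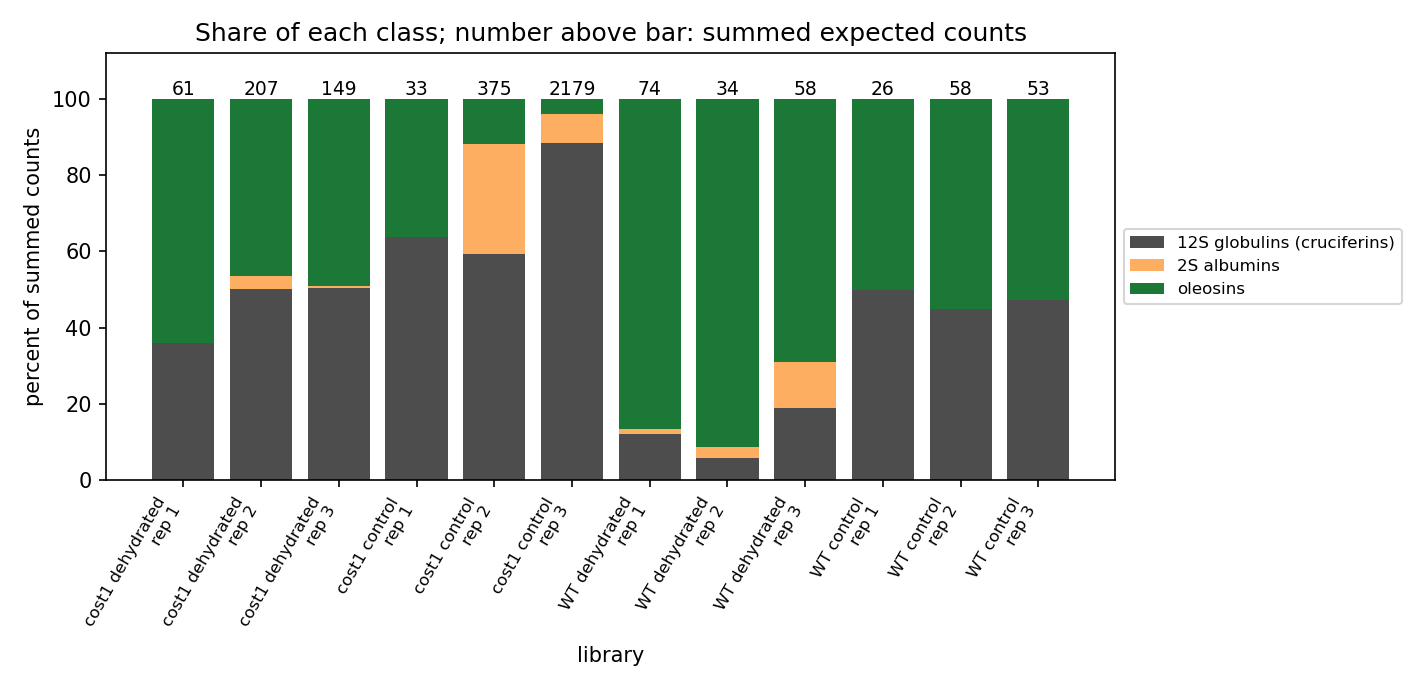
Share of each class in the summed expected counts of the 10 genes, by library, with the sum above each bar. Albumin reads make up 29.1% in cost1 control replicate 2 and 7.48% in replicate 3, and oleosin reads 69% to 91.2% in the WT dehydrated libraries.

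Part of the late embryo genes rose with dehydration. Of a list of 17 such markers, 9 rose with dehydration in cost1 and 8 in WT, 0 fell, and 5 were outside the fit. Of all genes tested 26.4% were called higher and 24.5% lower in cost1, and 24.9% higher and 20.6% lower in WT. LEA4-5, a LEA protein gene, rose by 7.29 in cost1 (SE 0.67, adjusted p = 6.87e-06) and by 7.88 in WT (SE 0.77, adjusted p = 1.08e-05). M10 rose by 6.27 in cost1 and by 5.97 in WT, ECP63 by 4.25 in cost1 and 4.98 in WT, and LEA4-2 by 4.21 in cost1 and 4.82 in WT, all called by edgeR. The 17 markers summed to 813, 4279 and 1725 counts in cost1 dehydrated, 37, 56 and 234 in cost1 control, 1227, 743 and 1045 in WT dehydrated, and 30, 55 and 44 in WT control. The 9 members other than OLEO4 summed to 24, 129 and 96 counts in cost1 dehydrated, 21, 354 and 2154 in cost1 control, 15, 3 and 20 in WT dehydrated, and 16, 31 and 34 in WT control. In WT the marker sums of dehydrated and control libraries did not overlap, with the dehydrated ones higher, while the storage sums did. Lowly expressed markers entered the fit through the dehydrated libraries.

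**Figure D4:**
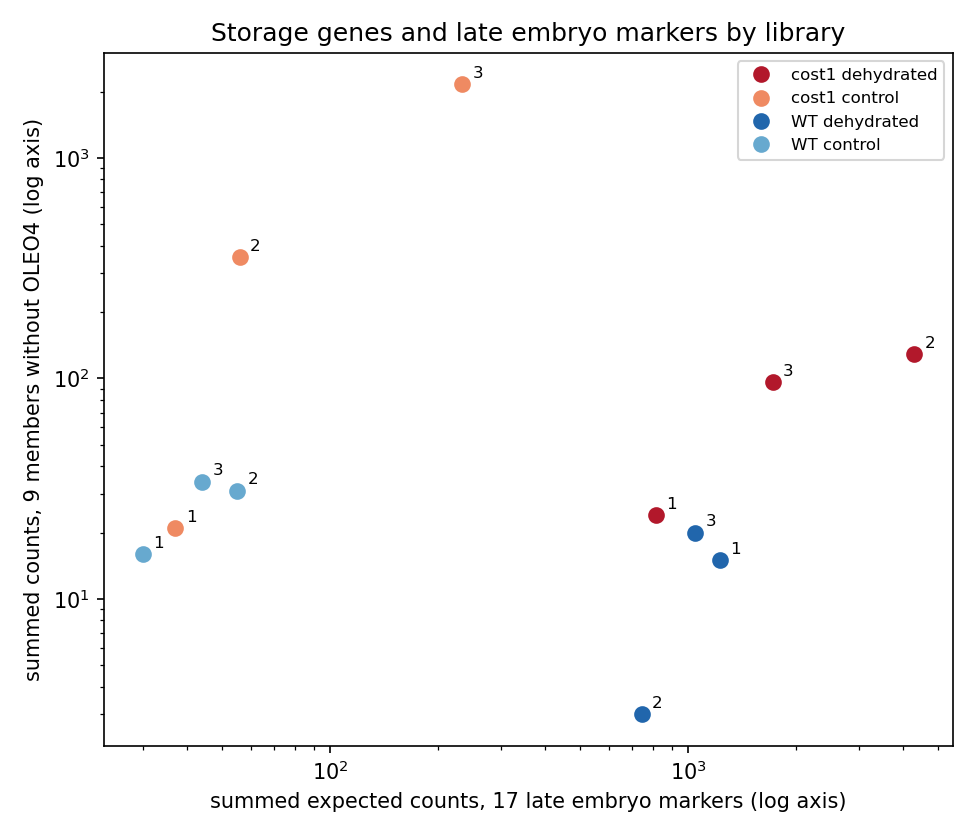
Summed expected counts of the 9 members other than OLEO4 (vertical, log axis) against those of 17 late embryo markers (horizontal, log axis), 1 point per library, labelled with the replicate number. Dehydrated libraries lie to the right at 743 to 4279 marker counts, and cost1 control replicates 2 and 3 lie high at 354 and 2154 storage counts.

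The 2 rich libraries also differed in what else they held. In cost1 control replicate 3, M17, a late embryo gene, had 107 counts against 2 to 7 in the other cost1 control libraries, and ICL, the glyoxylate cycle enzyme of oil breakdown, had 148 against 10 and 17. MLS, the partner enzyme of ICL, had 26 counts there against 4 and 7. In replicate 2 these genes were not raised. Of the dehydration markers, RD29A had 382 counts and COR15A 237 in replicate 2, against 149 and 13 in replicate 3 and 146 and 17 in replicate 1. RD29B and RAB18 were higher in both rich libraries than in replicate 1, RD29B with 36 and 27 counts against 8, and RAB18 with 90 or more in each against 29. RD20, a caleosin of oil bodies that water loss induces, had 386 counts in replicate 2 against 39 and 33, and 4302 to 17467 in cost1 dehydrated. All 17 late embryo markers were listed in replicate 3 and 10 in replicate 2. EM1 had 2 counts in replicate 3 and 0 in replicate 2, and EM6 had 3 and 4. What part such markers have in the storage gene counts was not tested.

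A list of 13 other genes for storage and oil body proteins held further reads of this kind. SESA5, another albumin gene, had 11 and 14 counts in cost1 control replicates 2 and 3 and 0 in the other 10 libraries. A vicilin-like gene, AT2G28490, had 37 counts in replicate 3 and 0 to 6 elsewhere. OLEO3 had 3 to 9 counts in the dehydrated libraries and 1 to 7 in the control libraries. Of the 13, the fit kept RD20 and the oleosin gene AT3G01570. RD20 rose by 6.22 in cost1 (SE 0.93, adjusted p = 0.000226) and by 8.78 in WT (SE 1.08, adjusted p = 5.84e-05), and AT3G01570 had a change of 0.30 in cost1 (adjusted p = 0.598) and of 0.92 in WT (adjusted p = 0.124).

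The main activators of the seed program were at or near 0. Of 14 activators, LEC1, ABI4 and MYB118 were listed in no library, and ABI3, FUS3 and LEC2 had 0 to 4 counts in every library. Of the 6 fitted, 3 rose in both genotypes and WRI1, a factor of seed oil synthesis, fell in cost1 by 0.59 (SE 0.20, adjusted p = 0.0261). Of all genes 26.4% were called higher and 24.5% lower in cost1, and 24.9% higher and 20.6% lower in WT. ABI5, a bZIP factor of the abscisic acid response, rose by 4.51 in cost1 (SE 0.40, adjusted p = 5.25e-06) and by 4.2 in WT (SE 0.41, adjusted p = 9.66e-06). BZIP25, which acts with ABI3 on storage genes, rose by 1.61 in cost1 and 1.31 in WT, and EEL, a bZIP factor that acts on EM1, by 1.53 in cost1 and 1.36 in WT. BZIP67 had 7 and 5 counts in cost1 control replicates 2 and 3 and 0 to 2 elsewhere.

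The 8 repressors of the seed program were all expressed. In cost1 2 rose and 1 fell, beside 26.4% of all genes called higher and 24.5% called lower. In WT 3 rose and 1 fell, beside 24.9% called higher and 20.6% called lower. ASIL2, a trihelix factor that holds down seed maturation genes, rose by 1.04 in cost1 (SE 0.19, adjusted p = 0.000994) and by 0.63 in WT (SE 0.19, adjusted p = 0.0192). VAL2 rose by 0.32 in both. VAL3 changed by 0.49 in cost1 (adjusted p = 0.106 by edgeR) and by 0.70 in WT (adjusted p = 0.0286). The Polycomb methyltransferase gene SWN changed by −0.39 in cost1 (adjusted p = 0.00951) and by −0.26 in WT (adjusted p = 0.0684). SWN was thus not the gene called lower in WT. VAL1 had 161, 162 and 172 counts in WT dehydrated against 242, 240 and 233 in WT control. In cost1 it had 178, 185 and 197 after dehydration against 259, 218 and 200 in control. Of 6 genes for sorting and processing of storage proteins 4 rose in each genotype and 1 fell in WT. Beside them stand 26.4% of all genes called higher and 24.5% lower in cost1, and 24.9% and 20.6% in WT. BETA-VPE, the seed-type vacuolar processing enzyme that cleaves globulins, rose by 2.27 in cost1 (SE 0.55, adjusted p = 0.00493) and by 3.70 in WT (SE 0.69, adjusted p = 0.00111). It had 87 and 44 counts in cost1 control replicates 2 and 3 against 11 in replicate 1. The sorting receptor gene VSR1 rose by 0.78 in cost1 and 0.66 in WT.

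Of 7 genes for the use of reserves after germination, 3 rose and 1 fell in cost1, and 2 rose and 1 fell in WT. All genes were called higher at 26.4% and lower at 24.5% in cost1, and at 24.9% and 20.6% in WT. ACX1 and ACX2, which start the breakdown of fatty acids, rose by 3.27 and 1.88 in cost1 and by 3.26 and 1.35 in WT. PCK1, an enzyme of sugar synthesis from oil, fell by 0.55 in cost1 and 0.56 in WT. ICL and MLS of the glyoxylate cycle had 2 to 33 counts in the cost1 dehydrated libraries and 1 to 8 in the WT dehydrated libraries, against 4 to 148 in cost1 control and 6 to 29 in WT control.

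Between genotypes no member passed the test. In control, CRA1 was higher in cost1 by 4.28 on the log2 scale (SE 1.15, unadjusted p = 0.00298, adjusted p = 0.965 by edgeR), OLEO2 by 1.74 (SE 1.05, adjusted p = 0.965) and OLEO4 by 0.04 (SE 0.44, adjusted p = 1). In that comparison edgeR called 0.0213% of all genes and DESeq2 0.0744%, and both called 0 of the 3 members. At an unadjusted p under 0.05 stood 1 of the members and 893 of the 18809 genes by edgeR, and 1 member and 876 genes by DESeq2. Without cost1 control replicates 2 and 3 the CRA1 difference was −0.11 (SE 0.88, adjusted p = 1), that of OLEO2 −4.71, fitted on a cost1 library at 0, and that of OLEO4 −0.60 (adjusted p = 1 for both). Without replicate 3 alone that of OLEO2 was 0.097 and that of CRA1 1.64. CRC was higher in every cost1 control library than in every WT control library, but the lowest of them had 2 counts against 0, 1 and 0; libraries did not overlap in this direction for 7.76% of all genes. Without replicate 1 of cost1 control, CRC entered the fit and was called higher in cost1 (adjusted p = 0.0167 by edgeR). In that fit 0.0367% of 19091 genes were called in either direction. CRC passed the count filter there only through replicates 2 and 3, where it was high, so the call is no separate test.

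After dehydration the cost1 and WT libraries did not overlap for CRA1, with 22, 98 and 74 counts in cost1 dehydrated against 9, 1 and 10 in WT dehydrated. The difference was 3.26 (SE 1.44, unadjusted p = 0.043, adjusted p = 0.566 by edgeR), and it did not pass in any of 23 alternatives (0.254 to 0.963). Libraries did not overlap in this direction for 4.94% of all genes. OLEO2 differed by 2.71 (SE 1.27, adjusted p = 0.583) and OLEO4 by 0.40 (SE 0.37, adjusted p = 0.788). OLEO2 passed the count filter only through cost1 libraries, with 12 and 14 counts in cost1 dehydrated and 28 in cost1 control. WT libraries had 0 to 4 counts of it. Its genotype differences, here and in control, thus come from a gene kept through the genotype where it was high. In this comparison edgeR called 0.0372% of all genes and DESeq2 0.154%, and both called 0 of the 3 members. An unadjusted p under 0.05 stood for 1 member and 1637 of 18809 genes by edgeR. By DESeq2 it stood for 2 members and 1426 genes. In the interaction 0% of genes and 0 members were called by edgeR, 690 genes and 0 members had an unadjusted p under 0.05, and DESeq2 called 1 gene, not a member.

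Genes that varied over the libraries as the mean of the 10 did were sought among genes of at least 1 FPKM on average. By Pearson r over the 12 libraries of log2(FPKM + 0.1) the first was MTHSC70-2, a mitochondrial chaperone gene (r = 0.902, Spearman rho = 0.727), then RABA5a (0.833 and 0.783) and SDH3-1 (0.83 and 0.783). By deviations from the group means the first were AT5G55560 (0.958), AT5G02460 (0.956) and NPC4, a phospholipase C gene (0.954), and EM6, listed as GEA6, was among the first 10 (0.947). Their r over the libraries, group means included, was lower: 0.36, 0.60, 0.47 and 0.21 in the same order. AT5G55560, NPC4 and EM6 were at 0 counts in cost1 control replicate 1. These lists are not stable: without cost1 control replicate 2, 1 of the first 10 remained by the first measure and 5 by the second.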

How the data were processed

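Per the file headers, each of the 12 libraries has a deposited table of genes with a length, an expected count (an estimate of reads per gene, not scaled) and an FPKM value scaled by the authors to length and depth. Tools named per the submitters' processing notes are DESeq2, HTSeq 0.6.0 and STAR 2.4.0, with the TAIR10 build. For the role of each, and for the program that made the expected counts: not given in the sources used here. Of the listed deposited counts 8.57% lay more than 0.005 from a whole number. Libraries held 12320257 to 13028160 clean reads.

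Expected counts were rounded and tested in edgeR 4.0.16 (R 4.3.3): filterByExpr over the 4 groups, TMM scaling, 1 quasi-likelihood fit of all 12 libraries with 8 residual degrees of freedom, Benjamini-Hochberg over all genes within each of 6 comparisons, calls at an adjusted p under 0.05. The SE of an edgeR change was derived as the absolute log2 change divided by the square root of the F statistic. It can be unreliable where the change is near 0 or counts are 0. Genes outside the fit had exact permutation tests of CPM at TMM scaling. The fit was tested on simulated counts with known changes. Intervals of shares are exact Clopper-Pearson intervals at 95%; they and the floor of 3 counts cover counting error only. Alternatives used DESeq2 1.42.0, limma 3.58.1 on log2(FPKM + 0.1) or log2(FPKM + 1), other scalings and filters, the compared groups alone, a replicate block, and each library left out. The main fit paired no libraries, and the replicate block, fitted over all 12 libraries, was an alternative only. Same-numbered libraries deviated together in the cost1 response (correlations 0.171, 0.384 and 0.19). In the other comparisons at least 1 correlation was below 0.1.

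Motifs were searched on both strands in 250 bases upstream of 27443 genes. Named genes were the members, COST1, up to 4 genes per list with the smallest p in the mean dehydration response, and the genes most like the members; others were named after their values were seen. The members and lists were chosen with earlier results of these data known.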

Additional observations from a re-analysis of the deposited data

How the results depend on the processing

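OLEO4 kept its direction in all alternatives for both dehydration responses, and with the replicate block its change was 1.67 in cost1 (adjusted p = 0.006) and 1.41 in WT (adjusted p = 0.0177); the block changed no member's call. Members called in the WT response were 2 with the compared groups alone, where 50.3% of genes were called. With 1 library left out they were 0 to 1, beside 35.4% to 47.7% of genes. In cost1 they were 2 with library totals, beside 54% of genes, and 4 with no count filter, beside 38.8%. With 1 library left out they were 1 to 6 in cost1, beside 39.9% to 53.4% of genes. In each of those fits OLEO4 was called higher, and any other member called was lower. A group of 2 can let 7 members pass the filter there. CRC, SESA1, SESA2 and OLEO1 passed only through cost1 control replicates 2 and 3, where they were high, so their calls are no separate test. Averaged over genotypes the members called were 2 by DESeq2, beside 61.6% of genes. With 1 library left out the averaged count was 1 to 2, beside 58.1% to 64.2%. The cost1 response of OLEO2 was 0.66 and 0.057 by limma with pseudocounts of 0.1 and 1, 0.053 with the replicate block and −0.72 to 1.49 with 1 library left out, and that of CRA1 −3.07 to 0.12. Chosen after seeing the data, leaving out cost1 control replicates 2 and 3 gave 6210 genes called in cost1, with 1.87 for CRA1 and 6.30 for OLEO2; averaged over genotypes 0.19 and 2.59; and 3.37 for the CRA1 interaction. That interaction was 0.53 by limma with 0.1 and −1.57 to 1.62 with 1 library left out, and the averaged OLEO2 change −1.24 to 0.19. The genotype difference in control without both was −0.11 for CRA1, −4.71 for OLEO2 and −0.60 for OLEO4, with 0 genes called; OLEO4 was −0.0018 by limma with 1 and −0.25 to 0.38 with 1 library left out. Genes called in that comparison were 14 by DESeq2, 2 with the groups alone, 1 with the block and 1 to 7 with 1 library left out, members 0 to 1. After dehydration they were 29 by DESeq2, 0 with the groups alone, 2 with the block, 2 without both libraries and 0 to 8; for the interaction DESeq2 called 1. The genes most like the members shared 2 of 10 with CPM at TMM scaling in place of FPKM, and 1 and 5 without cost1 control replicate 2. The cause was not tested. Counts near the floor of 3 limit 7 of the 10 genes.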

Other observations

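Genes with at least 30 counts in 1 library and more than 4 times the CPM, at TMM scaling, of every other library were counted. The rule was chosen after the data were seen. Cost1 control replicate 3 had 7 such genes, among them CRA1, CRC and SESA1, and EPR1, an extensin-like gene known from the endosperm of germinating seeds, with 125 counts against at most 2 elsewhere. M17 was also among them, and so was BGLU19, a beta-glucosidase gene, with 166 counts against at most 26. Cost1 control replicate 2 had 6 such genes, of which SESA4 was the only member. Cost1 dehydrated replicate 2 had 17, and each of the other libraries 0 to 3.

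Genes with at least 5 counts in both cost1 control replicates 2 and 3 were taken next. Of them, 8 had in both more than 2 times the CPM, at TMM scaling, of each of the other 10 libraries. Of these, 5 were members (CRU2, CRC, SESA2, SESA3 and OLEO1), and the others were SESA5, BZIP67 and UMAMIT36, an amino acid transporter family gene with 49 and 28 counts against at most 10 elsewhere. The search covered all 24035 listed genes. Its 2 libraries were picked after the members were seen to be high in them, so members among the 8 are no separate support.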
